A study of Bos taurus with 10 samples.

Results

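The genes of mitosis were followed in single bovine early blastocysts with and without an intact *SOX2*. A set of 42 genes was chosen by name, covering the cyclins and CDK1, the mitotic kinases, the spindle checkpoint, the kinetochore, the chromosomal passenger complex, the spindle and the cleavage furrow, the anaphase machinery, and the proliferation markers *TOP2A* and *MKI67*. Of these, 41 are rows of the table of 20112 genes, and all 41 were among the 20056 genes tested. *MAD2L1* has no row under that name and was not analysed here. All embryos were injected at the zygote stage with mRNA of the cytosine base editor BE3. The 5 WT embryos (nc1 to nc5) received this mRNA alone, and the 5 *SOX2* KO embryos (ko1 to ko5) received it together with several sgRNAs, which let the editor turn codons of *SOX2* into stop codons. Embryos without injection were not analysed here, so an effect of the injection itself is shared by both groups. The labels give day 7.0 after fertilization for both groups, and the text of the study a slightly later day. Its authors read the genotype of each *SOX2* KO embryo from the cDNA. Editing in a zygote can leave a mosaic embryo, and each *SOX2* KO library is a whole blastocyst in which trophectoderm, inner cells and any unedited cells are mixed. Fewer cells of a type and less RNA per cell cannot be told apart in such a library.

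Entry into mitosis is driven by CDK1 bound to a B-type cyclin, after cyclin A has acted in S phase and G2. Aurora, Polo-like and NEK kinases then build the spindle, and the checkpoint proteins hold back the anaphase-promoting complex (APC/C) until the kinetochores are attached. Once CDC20 and the conjugating enzyme UBE2C are active, securin and cyclin B are destroyed, separase cuts cohesin and the cell divides. Many of these transcripts are made mainly in G2 and M phase, so that in cycling tissues their level follows the share of dividing cells. In the early embryo the first divisions rely on stores of the oocyte.

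Each value is the number of reads on a gene after division by a size factor that DESeq2 gave to that embryo, called a normalized read count. The WT embryos had 2223670 to 5134855 reads on genes, the *SOX2* KO embryos had 2578284 to 4337342, and 0 of 45 pairs of embryos had identical reads. *SOX2* RNA itself spanned 56.5 to 93.4 in WT against 26.4 to 82.1 in *SOX2* KO embryos, with overlapping groups (limma log2 fold change -0.55, adjusted p = 0.167). Such counts cannot tell edited from unedited transcripts. A list of 10 epiblast markers, of which 9 are rows, had a summed level of 2486 to 3027 in WT against 1136 to 1431 in *SOX2* KO, and 7 of them passed the test described below downwards (3.2% of all tested genes did, and 10.4% upwards). The 8 of 9 primitive endoderm markers that are rows summed to 1412 to 1852 and 1254 to 1446, a sum led by *GATA6*, and 2 of them passed downwards. The 10 of 11 trophectoderm markers summed to 25544 to 37625 and 34580.1 to 47662, led by *KRT8*. Of these, 9 had a positive log2 fold change (median over the list 0.55) and 1 passed in each direction. The 7 of 10 cumulus cell markers summed to 10.4 to 61.4 and 32.0 to 71.3, and 0 passed, while the 13 of 14 oocyte markers summed to 62.6 to 159 and 63.3 to 98.8, and 1 passed upwards. The sums overlapped between the groups for all lists but that of the epiblast. The part of cell composition in the changes of the mitosis genes was not tested.

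Mitosis genes were lower in *SOX2* KO embryos as a set, by modest amounts. Of the 41 genes, 38 had a negative log2 fold change, 13 passed the test downwards and 0 passed it upwards, with 36 to 39 negative under other scalings. The test was limma on log2(normalized read count + 1) over all 20056 genes, and a gene passed when its p, adjusted by the method of Benjamini and Hochberg, was 0.05 or less. These 13 genes make up 31.7% of the set, whereas 3.2% of all tested genes passed downwards and 10.4% passed upwards. Negative values were found in 37.1% of all tested genes. Most genes of the table averaged fewer than 30 counts. Genes that averaged 30 or more counts give a closer background, since the lowest member, *CDC25B*, had a mean of 32.1. Beyond that cut they were not matched to the members in level, and the highest member, *UBE2C*, had a mean of 858. A part of level in the comparison was not tested. Among the 8529 genes averaging 30 or more counts, 58.1% had a negative log2 fold change, 6.57% passed downwards and 6.65% passed upwards. The median log2 fold change was -0.36 over the mitosis genes, that is 78.1% of the WT level, against 0.25 over all tested genes and -0.08 over those averaging 30 or more.

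The 13 genes that passed were *CCNA2*, *CCNB2*, *AURKA*, *PLK4*, *NEK2*, *TTK*, *CENPE*, *CENPF*, *CENPN*, *KIF20A*, *CKAP2*, *UBE2C* and *TOP2A*. Their levels in *SOX2* KO lay between 51.6% and 70.6% of WT on the scale of log2(normalized read count + 1). None reached the fold change of 2 that the study required for a differentially expressed gene, so 0 of 41 were called at both thresholds with limma, where 10.1% of all tested genes were called, 1.16% downwards, and 5.04% of those averaging 30 or more counts. At an unadjusted p of 0.05 or less there were 24 genes, all downwards, a level that 32.4% of all tested genes met. DESeq2 and edgeR on the recovered reads likewise called 0 and 2, the latter being *CCNA2* and *CENPN*. On the adjusted p alone, DESeq2 passed 14 of the 41 and edgeR 15, all of them downwards, against 3.99% and 4.32% of all genes tested. Among genes averaging 30 or more counts, 7.91% passed downwards with DESeq2 and 8.86% with edgeR.

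**Figure D1:**
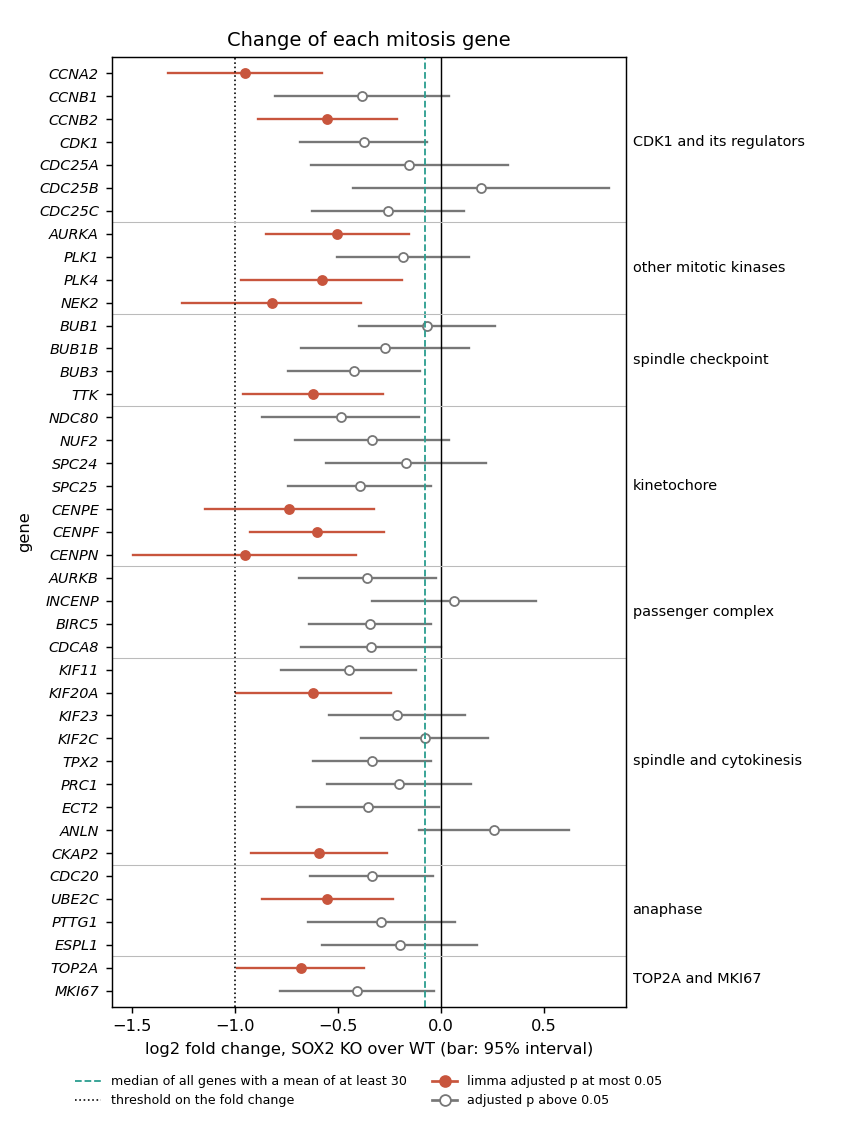
Log2 fold change of each of the 41 mitosis genes (rows, grouped by role) between SOX2 KO and WT embryos on the x axis, with 95% intervals from limma. Filled points mark the 13 genes with an adjusted p of at most 0.05, all left of 0, and the 3 genes right of 0 are CDC25B, INCENP and ANLN.

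Among the partners of CDK1, the clearest change was that of *CCNA2*, which encodes cyclin A2. Its normalized read counts were 372, 405, 306, 315 and 402 in the WT embryos and 188, 211, 158, 258 and 131 in the *SOX2* KO embryos. Every *SOX2* KO embryo lay below every WT embryo, with ko5 the lowest and ko4 the closest to WT. The log2 fold change was -0.95 (standard error, SE, 0.18, limma adjusted p = 0.00250). *CCNB2*, a B-type cyclin, had 165, 136, 139, 159 and 155 in WT and 92.4, 118, 103, 95.3 and 105 in *SOX2* KO embryos. The groups were again apart, and the values within each group lay close together (log2 fold change -0.55, SE 0.16, limma adjusted p = 0.0297).

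*CCNB1*, the main mitotic cyclin and the member of this group with the most reads, behaved less uniformly. It had 548, 672, 537, 550.1 and 436 in WT and 305, 734, 328, 477 and 359 in *SOX2* KO embryos. The value of ko2 was the highest of all 10 embryos, while ko1, ko3 and ko5 were below the lowest WT embryo. The log2 fold change was -0.38 with a 95% interval of -0.80 to 0.04 (limma adjusted p = 0.196). Without ko2 it was -0.59 and passed, as it did in only 1 of the 10 fits that left out an embryo. It passed in 0 of the 13 alternatives that kept all embryos. *CDK1* itself had -0.38 (95% interval -0.68 to -0.07, limma adjusted p = 0.0892), with 4 of 5 *SOX2* KO embryos below the lowest WT embryo. The CDC25 phosphatases, which remove the inhibitory phosphates of CDK1, did not pass. Their log2 fold changes were -0.15 for *CDC25A*, 0.19 for *CDC25B* and -0.26 for *CDC25C*, with 95% intervals of -0.63 to 0.32, -0.43 to 0.81 and -0.62 to 0.11. Ratios of reads within an embryo do not depend on the scaling. Reads of *CCNA2* over those of *CCNB1* were 0.570 to 0.922 in WT against 0.288 to 0.617 in *SOX2* KO embryos, and *CCNA2* over *CCNB2* was 1.98 to 2.97 and 1.25 to 2.71. Both ratios overlapped between the groups, and an unequal change of the cyclins was not tested.

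Of the other mitotic kinases, *NEK2*, *PLK4* and *AURKA* fell and *PLK1* did not pass. *NEK2*, which acts in the separation of centrosomes, had 97.7, 99.4, 58.7, 94.0 and 93.8 in WT and 54.6, 52.8, 47.7, 50.1 and 40.4 in *SOX2* KO embryos. The groups did not overlap, but the WT embryo nc3 lay just above the *SOX2* KO embryos and far below the other WT embryos. The log2 fold change was -0.82 (SE 0.21, limma adjusted p = 0.0157). *PLK4*, the kinase that starts the duplication of centrioles, had 74.0, 83.0, 81.5, 87.0 and 93.8 in WT and 57.9, 54.1, 62.8, 53.4 and 50.7 in *SOX2* KO embryos. These are the tightest groups among the kinases of this paragraph, and they were apart (log2 fold change -0.58, SE 0.19, limma adjusted p = 0.0451). Their coefficients of variation (8.69% in WT, 8.38% in *SOX2* KO) were below those from the counting of reads alone (10.5% and 14.2%), so the tightness is no measure of precision. *AURKA*, which matures centrosomes and assembles the spindle, had 452, 423, 310.2, 449 and 394 in WT and 241, 334, 236, 369.6 and 261 in *SOX2* KO embryos. The groups overlapped through nc3, ko2 and ko4, and the change was at the edge of the threshold (log2 fold change -0.50, SE 0.17, limma adjusted p = 0.0498). *PLK1*, the Polo-like kinase of spindle assembly and mitotic exit, had a log2 fold change of -0.18 (95% interval -0.50 to 0.14).

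**Figure D2:**
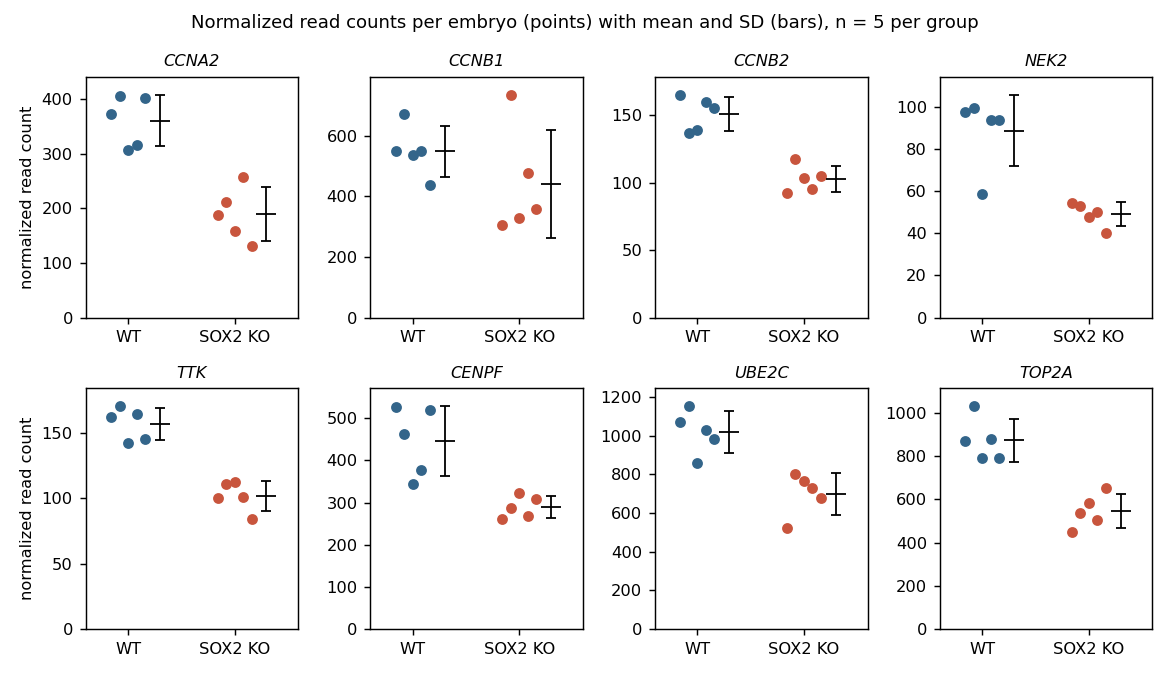
Normalized read counts (y axis, from 0) of 8 mitosis genes in each WT and SOX2 KO embryo (points), with the mean and SD of the 5 embryos of a group. The groups are apart for all genes shown except CCNB1, where ko2 exceeds every WT embryo.

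In the spindle checkpoint, *TTK* (the kinase MPS1, which recruits the checkpoint proteins to unattached kinetochores) was the gene that passed. It had 163, 171, 142, 165 and 145 in WT and 100.2, 111, 113, 101 and 84.2 in *SOX2* KO embryos, without overlap (log2 fold change -0.62, SE 0.16, limma adjusted p = 0.0181). *BUB3*, which brings BUB1 and BUBR1 to the kinetochore, had the most reads of this group, with 571, 592, 491, 713 and 656 in WT and 372, 519, 430.2, 536 and 402 in *SOX2* KO embryos. Its groups overlapped through nc3, ko2 and ko4 (log2 fold change -0.42, 95% interval -0.74 to -0.10, limma adjusted p = 0.0709). *BUB1B*, which encodes BUBR1, had -0.27 (95% interval -0.68 to 0.13). *BUB1* had -0.07 (95% interval -0.40 to 0.26), and its groups overlapped.

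At the kinetochore, all 7 genes had negative values and 3 passed. *CENPN*, which binds the CENPA nucleosome, had 67.9, 66.7, 42.8, 45.8 and 63.7 in WT and 34.5, 39.6, 20.9, 30.4 and 21.9 in *SOX2* KO embryos. Its groups were apart, although the lowest value rests on 18 reads (log2 fold change -0.95, SE 0.26, limma adjusted p = 0.0215). *CENPE*, the kinesin that carries chromosomes to the spindle equator, had 305, 357, 477, 350.4 and 524 in WT and 241, 298, 264, 145 and 268 in *SOX2* KO embryos. Here ko4 was far lower than the rest, and ko2 came close to nc1 without reaching it (log2 fold change -0.74, SE 0.20, limma adjusted p = 0.0198). *CENPF*, a large protein of the outer kinetochore, had 527, 463, 343, 378 and 519 in WT and 262, 288, 322, 269 and 308 in *SOX2* KO embryos. The *SOX2* KO values were narrowly grouped below the WT values (log2 fold change -0.60, SE 0.16, limma adjusted p = 0.0170). The 4 subunits of the NDC80 complex, which grips the microtubule, did not pass. They had log2 fold changes of -0.49 (*NDC80*), -0.33 (*NUF2*), -0.17 (*SPC24*) and -0.39 (*SPC25*), with limma adjusted p of 0.0767, 0.202, 0.546 and 0.110.

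None of the 4 genes of the chromosomal passenger complex, which corrects wrong attachments and later directs cytokinesis, passed the adjusted p. *AURKB*, its kinase, had 279, 243, 229, 240.1 and 200.1 in WT and 171, 151, 216, 183 and 209.9 in *SOX2* KO embryos. Of the 5 *SOX2* KO embryos, 3 lay below the lowest WT embryo (log2 fold change -0.36, 95% interval -0.69 to -0.03, limma adjusted p = 0.127). *BIRC5*, which encodes survivin, had 438, 449, 357, 484 and 453 in WT and 308, 317, 357, 369 and 361 in *SOX2* KO embryos. The overlap was due to nc3, and the log2 fold change was -0.34 (95% interval -0.64 to -0.05, limma adjusted p = 0.103). *CDCA8* (borealin) had -0.34, and the scaffold *INCENP* had 0.06 with a 95% interval of -0.34 to 0.46 and a negative sign when the embryos were scaled to equal totals.

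Among 9 genes of the spindle and of cytokinesis, *KIF20A* and *CKAP2* fell. *KIF20A*, a kinesin of the central spindle, had 363, 344, 308, 275 and 340.0 in WT and 167, 324, 194, 238 and 166 in *SOX2* KO embryos. Only ko2 reached the WT range, and the other 4 were below it (log2 fold change -0.62, SE 0.18, limma adjusted p = 0.0294). *CKAP2*, a microtubule-associated protein of the spindle, had 465, 415, 491, 371 and 520.0 in WT and 259, 372, 305, 329 and 241 in *SOX2* KO embryos. The highest *SOX2* KO embryo, again ko2, was just above the lowest WT embryo (log2 fold change -0.59, SE 0.16, limma adjusted p = 0.0197). *TPX2*, the activator of Aurora A, had no overlap, with 429 to 498 in WT against 326 to 403 in *SOX2* KO embryos, yet did not pass (log2 fold change -0.33, limma adjusted p = 0.103). *KIF23*, the motor of centralspindlin, had the most reads here, with 530.4, 519, 423, 452 and 603 in WT and 441, 576, 366, 381 and 427 in *SOX2* KO embryos. Its groups overlapped widely (log2 fold change -0.21, 95% interval -0.54 to 0.12). *KIF11*, which pushes the spindle poles apart, had -0.45, *ECT2*, the exchange factor that activates RhoA, -0.35, the bundling protein *PRC1* -0.20 and the depolymerizing kinesin *KIF2C* -0.08, none of which passed (limma adjusted p from 0.0617 to 0.744). *ANLN*, the scaffold of the contractile ring, was the member with the largest positive value. It had 333 to 514 in WT against 395 to 689 in *SOX2* KO embryos, with overlapping groups (log2 fold change 0.26, 95% interval -0.11 to 0.62, limma adjusted p = 0.316).

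Of the genes that carry the cell through anaphase, *UBE2C*, the ubiquitin-conjugating enzyme of the APC/C, fell. It had 1072, 1152, 857, 1031 and 981 in WT and 521, 800.2, 764, 729 and 677 in *SOX2* KO embryos. All *SOX2* KO embryos were below all WT embryos, and ko1 was the lowest (log2 fold change -0.55, SE 0.15, limma adjusted p = 0.0229). The APC/C activator *CDC20* had -0.34 (95% interval -0.63 to -0.04, limma adjusted p = 0.110), with 4 of 5 *SOX2* KO embryos below the lowest WT embryo. The log2 fold changes of *PTTG1* (securin) and *ESPL1* (separase) were -0.29 and -0.20, with 95% intervals of -0.65 to 0.07 and -0.58 to 0.17.

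*TOP2A*, the topoisomerase that untangles sister chromatids, passed the adjusted p in every alternative run, leaving out embryos included. It had 872, 1031, 793, 879 and 789 in WT and 446, 537, 585, 506 and 654 in *SOX2* KO embryos. The highest *SOX2* KO embryo, ko5, was well below the lowest WT embryo, nc5 (log2 fold change -0.68, SE 0.15, limma adjusted p = 0.00667). *MKI67*, which encodes the proliferation antigen Ki-67, had 369, 286, 324, 270.4 and 299 in WT and 181, 249.6, 259, 171 and 332 in *SOX2* KO embryos. In 4 of the 5 *SOX2* KO embryos it was below the WT range, and in ko5 it was within that range (log2 fold change -0.41, 95% interval -0.78 to -0.03, limma adjusted p = 0.125).

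Separation of the groups was also counted without a model. For 11 of the 41 genes (26.8%), all 5 *SOX2* KO embryos were below all 5 WT embryos, and for 0 genes they were all above. Over all tested genes, 2.76% were separated downwards and 6.41% upwards, and over genes averaging 30 or more counts, 5.66% were separated downwards. The 11 genes were the 13 that passed without *AURKA*, *KIF20A* and *CKAP2* and with *TPX2* added. At least 4 of the 5 *SOX2* KO embryos were below the lowest WT embryo for 17 genes, a count whose share over all tested genes was not taken. Among the 28 genes that did not pass the adjusted p, no 95% interval reached a log2 fold change of -1, so a fall to the study's fold threshold lay outside the intervals of these genes.

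**Figure D3:**
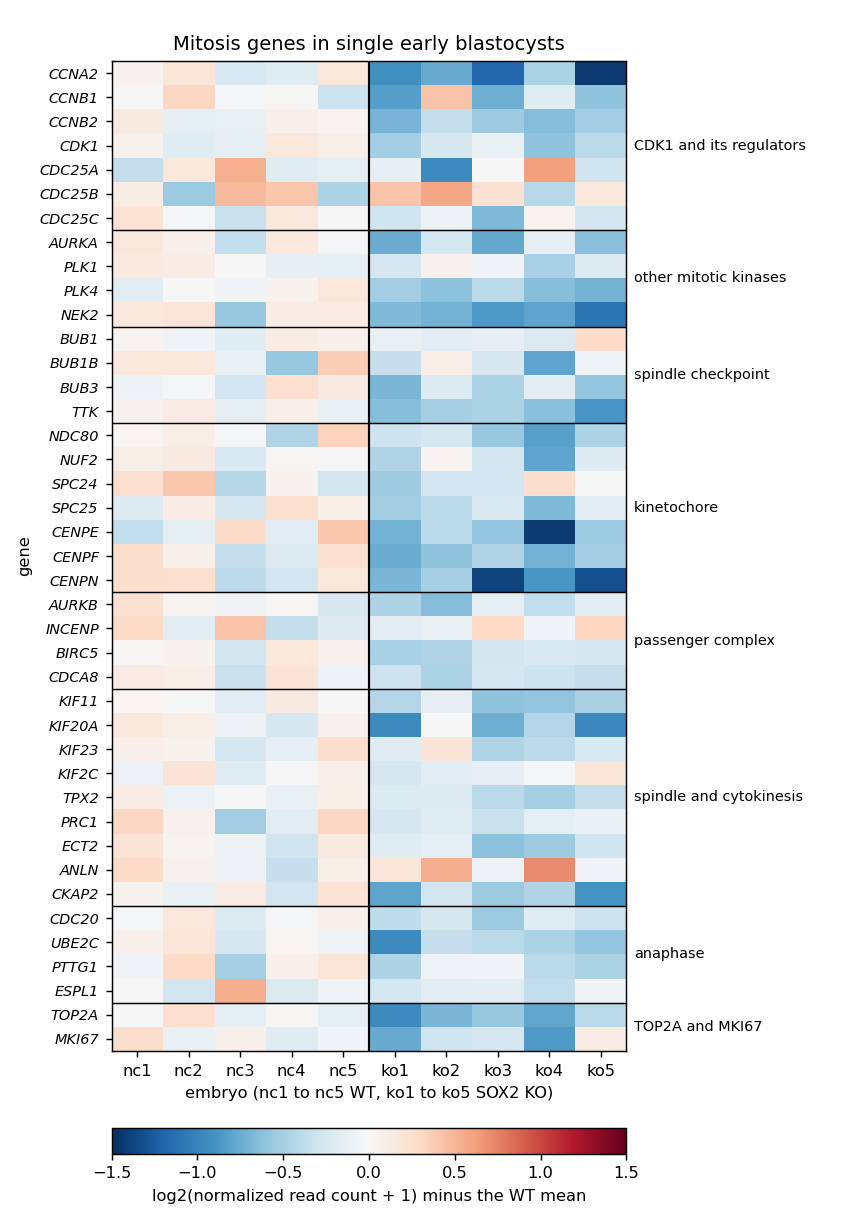
Difference of each mitosis gene (rows, grouped by role) in each embryo (columns) from the mean of the 5 WT embryos, in log2(normalized read count + 1). Blue marks values below the WT mean, which holds for 34 to 39 of the 41 genes in each SOX2 KO embryo and for 33 of 41 in the WT embryo nc3.

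The fall was spread over all 5 *SOX2* KO embryos and was not carried by a single one. In ko1 to ko5, 39, 34, 39, 37 and 36 of the 41 genes were below the mean of the WT embryos. The median difference from that mean over the 41 genes was -0.46, -0.24, -0.41, -0.45 and -0.35 (log2), in the same order. In the WT embryos nc1 to nc5 the median differences were 0.08, 0.07, -0.14, 0.02 and 0.07. Thus ko2 was the mildest *SOX2* KO embryo, with the highest value of its group for 16 of the 41 genes. Among the WT embryos, nc3 was the lowest, with the lowest value of its group for 21 of the 41 genes. For genes averaging 30 or more counts, the median differences of the *SOX2* KO embryos ranged from -0.14 to 0.03.

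The share of reads that fell on mitosis genes does not use the size factors. With *RN18S1* (18S ribosomal RNA) left out of the total, the 41 genes held 0.602%, 0.569%, 0.572%, 0.516% and 0.593% of the reads in nc1 to nc5, and 0.429%, 0.493%, 0.438%, 0.417% and 0.441% in ko1 to ko5. The lowest WT share, that of nc4, was above the highest *SOX2* KO share, that of ko2, and their 95% Wilson intervals, which cover counting error only, were 0.509% to 0.525% and 0.482% to 0.504%. By this measure nc3 was not the lowest WT embryo. *RN18S1* itself took 26.4% to 37.0% of all reads in WT against 32.5% to 45.0% in *SOX2* KO embryos, with overlapping groups. With this share as a covariate in limma, the median log2 fold change of the set was -0.33, and 40 of 41 genes stayed negative. *TOP2A* was then the gene that passed (limma adjusted p = 0.0404), while 1.26% of all tested genes passed, 0.519% downwards. The *RN18S1* share of ko4 (32.5%) was just below that of nc1 (33.0%). Those of ko1 and ko2 (36.8% and 34.6%) were within the WT range only through nc3 (37.0%), and ko3 and ko5 were above it. As this share tended to be higher in *SOX2* KO embryos, its part in the fall cannot be told apart from that of the group.

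**Figure D4:**
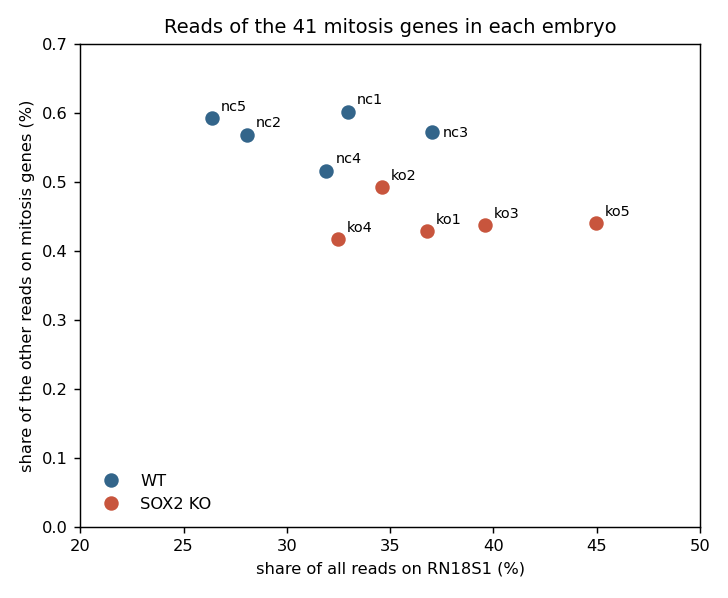
Share of reads on the 41 mitosis genes, out of the reads not on RN18S1 (y axis, %), against the share of all reads on RN18S1 (x axis, %), with a point for each embryo. All 5 SOX2 KO embryos (0.417% to 0.493%) lie below all 5 WT embryos (0.516% to 0.602%).

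Mitosis genes varied little between embryos of a group. Their median coefficient of variation was 13.8% in WT and 15.1% in *SOX2* KO embryos, against 5.81% and 7.37% from the counting of reads alone. Reads carry no molecular identifiers, so counting error is a lower limit of the technical error. The widest spread in WT was that of *CDC25B* (33.1%), whose lowest value rests on 13 reads, and in *SOX2* KO that of *CCNB1* (40.2%), due mostly to ko2. On the log2 scale, the median SD was 0.20 in WT and 0.22 in *SOX2* KO embryos, and it was 0.31 in both groups for genes averaging 30 or more counts. Beyond that cut, these genes were not matched to the mitosis genes in level, so the smaller SD may go with the level. The SD was larger in *SOX2* KO than in WT for 28 of the 41 genes (68.3%), compared with 48.4% of the genes averaging 30 or more counts. This is a description of 5 embryos a group, with no test.

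Genes of the same process outside the set were examined as 6 further lists with 133 genes, all of which were tested. Of these, 115 had a negative log2 fold change, 18 passed downwards and 0 passed upwards, with a median of -0.32. The 18 genes are 13.5% of the lists, against the 3.2% and 6.57% given above. Their number was 6 without ko5, 10 without nc1, nc2, ko1 or ko3 and 11 without nc4 or nc5. It was 21 without nc3 or ko2 and 27 without ko4. Of genes averaging 30 or more counts, 3.22% passed downwards without ko5 and 11.3% without ko4. The lists differed in their counts. Condensin and cohesin, the rings that compact chromosomes and hold sister chromatids, had 6 of 19 genes past the test (31.6%). The other kinetochore and centromere genes had 6 of 33 (18.2%), and the APC/C and its partners 3 of 21 (14.3%). Other spindle and cytokinesis genes had 2 of 31 (6.45%), other regulators of entry 1 of 18 (5.56%) and the centrosome 0 of 11. The shares of these last lists did not exceed the 6.57% of genes averaging 30 or more counts. An unadjusted p of at most 0.05 was met by 4 of the 11 centrosome genes and by 48 of all 133, and by 32.4% of all tested genes. None was called at both thresholds with limma (0 of 133), while DESeq2 called 1 and edgeR 3.

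*STAG2*, a cohesin subunit, had the largest change in its list, with 313 to 565 in WT against 170.0 to 294 in *SOX2* KO embryos (log2 fold change -0.93, SE 0.19, limma adjusted p = 0.00392). The condensin core subunits *SMC2* and *SMC4*, which work as a pair, had -0.63 and -0.61 (limma adjusted p = 0.0120 and 0.0118). *SMC2* ranged over 419.6 to 541 in WT against 244 to 348 in *SOX2* KO embryos, and *SMC4* over 596 to 868 and 408 to 491, both without overlap. *NCAPG*, of the same complex, and the cohesin subunit *SMC1A* followed with -0.63 and -0.67. At the centromere, *MIS18A*, needed for the loading of CENPA, fell, with 106 to 172 in WT against 58.8 to 85.7 in *SOX2* KO embryos (log2 fold change -0.97, SE 0.19, limma adjusted p = 0.00315). *CENPU*, *NSL1*, *CENPC* and *CENPM* had -0.83, -0.78, -0.69 and -0.64. The remaining genes that passed and are named by the rule were *WEE1*, the kinase that holds CDK1 inactive (-0.63), the APC/C subunits *ANAPC7* (-0.62), *ANAPC16* (-0.85) and *CDC23* (-0.87), and the kinesins *KIF15* (-0.85) and *KIF2A* (-0.91), with limma adjusted p from 0.0214 to 0.0449 and overlapping groups. *KIF15* had 131, 149.8, 358, 94.8 and 113 in WT, where nc3 stood far above the rest, and without nc3 its log2 fold change was -0.54 and did not pass. Of the 10 fits that left out an embryo, *KIF2A* passed in 9, *ANAPC16* and *KIF15* in 4, *WEE1* and *ANAPC7* in 3 and *CDC23* in 2, whereas *STAG2*, *SMC2*, *SMC4* and *MIS18A* passed in all. The other genes named here passed in 2 (*NSL1*) to 8 (*CENPC*).

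**Figure D5:**
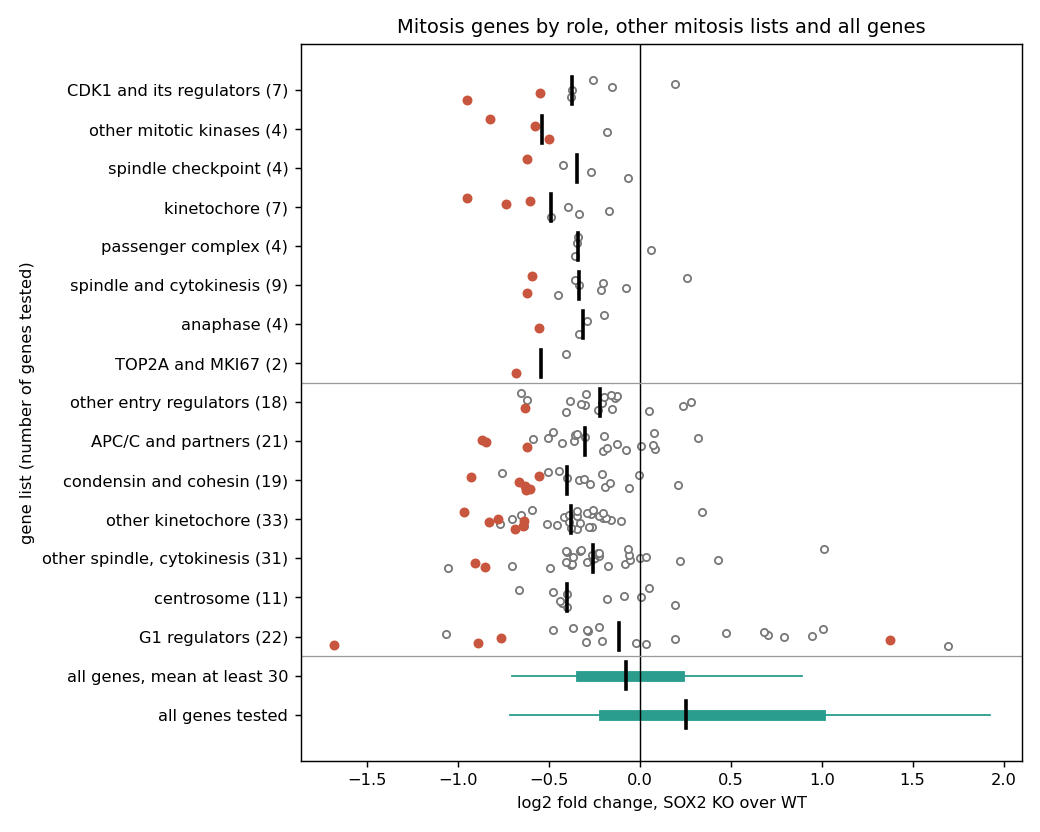
Log2 fold changes of the mitosis genes by role (upper 8 rows) and of the other lists (next 7 rows), with a point for each gene and black bars at the medians. Filled points have a limma adjusted p of at most 0.05, and the 2 lowest rows give the median, quartiles and 5th to 95th percentile of genes averaging 30 or more counts and of all tested genes.

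Regulators of G1, the phase before DNA replication, were taken as context. Of 22 genes, 3 passed downwards (13.6%, against 3.2% of all tested genes) and 1 upwards, where 10.4% of all tested genes passed, and the median was -0.12. *CCND2* (cyclin D2) fell, with 156 to 219 in WT against 28.8 to 141 in *SOX2* KO embryos, that is -1.68 on the log2 scale (SE 0.28, limma adjusted p = 0.000872). *CCNE1* (cyclin E1) held to 178 to 189.8 in WT and spread over 69.2 to 194 in *SOX2* KO embryos (-0.89, limma adjusted p = 0.0135). *CDKN1B*, the inhibitor p27, had -0.77 (limma adjusted p = 0.0379). *CDK6*, a partner of the D-type cyclins, rose, with 10.9 to 28.3 in WT against 16.4 to 62.8 in *SOX2* KO embryos (1.38, limma adjusted p = 0.0208), with overlapping groups. *CCND2* and *CCNE1* passed in all 10 fits that left out an embryo, *CDK6* in 6 and *CDKN1B* in 3.

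Some members overlap another gene in the RefSeq annotation of a later assembly, and the strand setting of the counting is not given in the sources used here. Reads of such pairs may be shared. This concerns 8 of the 41 genes. *KIF20A* overlaps *CDC23*, and both passed downwards. *CCNA2* overlaps *EXOSC9*, which had a log2 fold change of -0.35 (limma adjusted p = 0.151). *PLK1* overlaps *ERN2*, which rose (2.15, limma adjusted p = 0.0332) at a mean of 4.23 counts. *CDC25C* overlaps *SLBP2*, which fell (-1.84, limma adjusted p = 0.0442) at a mean of 6.58 counts, and *FAM53C*, which did not pass. The neighbours of the other 4 members did not pass either.

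The number of mitosis genes that passed depended on single embryos. It was 5 without ko5, 6 without nc1 or nc5, 7 without ko1 and 8 without nc2 or ko3. It was 11 without nc4, and 14 without nc3, ko2 or ko4, in fits that have fewer embryos. The share of genes averaging 30 or more counts that passed downwards moved as well, from 3.22% without ko5 to 11.3% without ko4. *CCNA2*, *NEK2* and *TOP2A* passed in all 10 of these fits, *TTK*, *CENPE* and *CENPF* in 9, *CKAP2* in 7, *UBE2C* in 6, *CENPN* in 5, *CCNB2* and *KIF20A* in 4, *AURKA* in 3 and *PLK4* in 1. With quantile normalization, or with the embryos scaled to the median log ratio of genes averaging 100 or more counts, 9 of the 13 passed, without *CCNB2*, *AURKA*, *PLK4* and *CENPE*, and *AURKA* passed in 6 of 13 alternatives that kept all embryos. The direction was steadier than the calls, with 37 to 39 of the 41 genes negative and a median of -0.41 to -0.34 in the 10 fits.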

How the data were processed

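Single early blastocysts (5 WT, 5 *SOX2* KO) were profiled with Smart-seq2, which captures polyadenylated RNA and amplifies its cDNA without molecular identifiers. Per the labels and the methods of the study, the authors used Trimmomatic for trimming, Hisat2 for mapping (bovine assembly ARS-UCD1.2), featureCounts for counting and DESeq2 for normalization. The annotation release and the handling of reads shared by genes are not given in the sources used here. What the authors deposited is a signal on a normalized scale, each gene's count over the size factor of its embryo. All 201120 values (100%) were whole multiples of a step per embryo (tolerance 1e-06), and reads were recovered from these steps. The *SOX2* KO embryos are ko1 to ko5 in the table but 1, 2, 3, 5 and 6 in the labels, so they were assigned to their group and not to single samples.

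Fits were made with limma (version 3.58.1, variance trend) on log2(normalized read count + 1) for the 20056 genes averaging 1 or more counts, without covariates. Fold changes on this scale understate those of genes with few reads. A Benjamini-Hochberg adjusted p of 0.05 or less counted as passed, and together with a fold change that reached 2 upwards or 0.5 downwards as called. DESeq2 (1.42.0) and edgeR (quasi-likelihood, 4.0.16) on the recovered reads, other pseudocounts, filters and scalings, sample weights and leaving out each embryo were the alternatives, in R 4.3.3. Tables and plots were made in Python 3.11.15 with pandas 2.3.3 and matplotlib 3.10.9. The fits were tested on simulated counts. p-values measure the spread between these embryos, whose fertilization batches are not given in the sources used here. The members and lists were chosen with earlier results of these data known. Values per embryo are given for genes that passed and, in each role, for the gene with the largest change and that with the most reads, and genes of other lists are named when they passed, up to 5 a list. *TPX2* and *ANLN* and the ratios of cyclins were singled out after their values were seen. Genome coordinates, promoter and protein sequences were not analysed here.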

Additional observations from a re-analysis of the deposited data

Results flagged for a closer look

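In 3 of 90 groups of 5 embryos, a single embryo lay far from the other 4, where chance gives about 1 in 20, or 4.5. *NEK2* had 58.7 in the WT embryo nc3 and 93.8 to 99.4 in the other WT embryos. *ESPL1* had 207 in nc3 and 116 to 142 in the other WT embryos. *BUB1* had 214 in ko5 against 151 to 164 in the other 4, above every WT embryo. Without nc3, the log2 fold change of *NEK2* was -0.96 and that of *ESPL1* -0.06.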

How the results depend on the processing

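No paired analysis was possible because the *SOX2* KO samples are numbered 1, 2, 3, 5 and 6 in the labels and 1 to 5 in the table, so that it is uncertain which embryo a table number stands for. A fit with the number as a block was therefore not run. Of the 41 genes, 36 kept a negative value in each of the 13 alternatives that did not leave out an embryo. Rescaling moved the median of all genes from 0.25 to 0.14 (equal totals), 0.34 (median log ratio) and -0.02 (quantile). Relative to it, the median of the mitosis genes went from -0.61 to -0.62, -0.60 and -0.26. Relative to genes averaging 30 or more counts it was -0.28, and -0.29 to -0.23 in the 13 alternatives.

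The number of mitosis genes past the adjusted p was 20 with equal totals, against 13. It was 1 with the *RN18S1* share as a covariate, an alternative added after the values were seen. Of genes averaging 30 or more counts, 10.6% passed downwards with equal totals and 1.11% with the covariate, against 6.57%. Both thresholds together called 2 mitosis genes with equal totals, 2 with sample weights, 2 with edgeR and 1 with quantile normalization, against 0. Their median log2 fold change of -0.36 became -0.48 with equal totals, -0.45 with edgeR and -0.25 with a median log ratio taken over genes averaging 100 or more counts. Of the 133 genes of the further lists, 31 passed with equal totals and 30 with sample weights, against 18. That median log ratio gave 11 and the covariate 1. In the same order, 10.6%, 12.1%, 4.23% and 1.11% of genes averaging 30 or more counts passed downwards. Calls in these lists were 3, 1, 3, 2, 1 and 1 with equal totals, weights, edgeR, quantile normalization, DESeq2 and the covariate, against 0. Of the 22 G1 regulators, 2 were called, where 10.1% of all tested genes were. Their calls went to 1 with the covariate and to 3 with equal totals, quantile normalization or sample weights. Over all genes, calls went from 2024 to 1185 (pseudocount 5), 1076 (quantile), 692 (genes averaging 10 or more), 3515 (weights) and 220.0 (covariate). Leaving out embryos gave 930 to 3316 calls over all genes and 0 to 2 among the mitosis genes. In these fits, 5 to 14 mitosis genes passed the adjusted p, with medians of -0.41 to -0.34. Of the further lists, 6 to 27 genes passed and 0 to 2 were called, and G1 regulators had 1 to 3 calls. Among genes averaging 30 or more counts, 3.22% to 11.3% passed downwards.

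Signs turned for 5 genes that did not pass. *INCENP* (0.06) had -0.061 with equal totals, -0.055 with edgeR, -0.029 without nc4, -0.0049 without ko5 and -0.24 with the covariate, and reached 0.17 without nc3. *BUB1* (-0.07) had 0.035 with that median log ratio, 0.016 with quantile normalization and 0.0076 with a median log ratio over genes averaging 30 or more (added after the values were seen). *KIF2C* (-0.08) had 0.024 with the median log ratio. *CDC25A* (-0.15) had 0.046 without ko2 and down to -0.35 without ko4, and *CDC25B* (0.19) had -0.15 with the covariate. The causes were not tested.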
